A study of Homo sapiens with 6 samples.

Results

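The peaks compared are those that the even and the odd probe set against the long noncoding RNA DINO each recovered from chromatin without RNase, on chromosomes 1 to 22 and X. They were taken whole from the deposited peak lists of these samples, 105669 even and 34695 odd peaks, together 140364 of the 314065 peaks in the 4 lists of the series. The cells were U2OS, an established human osteosarcoma line with wild-type p53. All samples, the RNase-treated ones included, came from cells exposed to doxorubicin at 0.2 µg/mL for 24 h, crosslinked with glutaraldehyde before the chromatin was sheared. The other lists hold the same probe sets on RNase-treated chromatin, and the input samples were not analysed here. There was 1 library per condition, so differences below are between libraries, with no replicate spread and no p-value.

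In ChIRP (chromatin isolation by RNA purification), biotinylated oligonucleotides that tile an RNA pull down the chromatin crosslinked to it. The oligonucleotides are numbered along the RNA and divided into even and odd pools that share no oligonucleotide. A place the RNA touches should be recovered by both pools, whereas a place that 1 pool recovers through its own base pairing with DNA or with another RNA need not be. DINO is induced by p53 after DNA damage, binds p53 protein and helps to keep it active. It is transcribed next to CDKN1A, the gene of p21, which holds back the cell cycle, in the opposite direction. The question here was how far the lists of both pools fall in the same places, from single base pairs up to megabases.

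Of the genome, only a stretch at the start of the gene of the probes' target RNA can be shown as sequence, since no hg19 sequence was used here. In RefSeq's tables of GRCh38.p14, where both symbols searched were found, DINO is listed as DINOL, is 951 bp long and starts 155 bp from a start of CDKN1A on the other strand. The stretch between these starts and the first 50 bases of DINO, which are in capitals, is shown because the strongest region shared by both probe sets lies at this gene. It is the minus strand of chr6:36678510-36678713 in GRCh38.p14, 204 bases with 77.5% G or C.
DINOL: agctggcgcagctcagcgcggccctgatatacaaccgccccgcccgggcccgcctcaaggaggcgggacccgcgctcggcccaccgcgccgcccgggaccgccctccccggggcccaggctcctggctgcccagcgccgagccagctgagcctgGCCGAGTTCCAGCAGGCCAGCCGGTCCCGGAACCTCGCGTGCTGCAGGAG

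The lists were alike in their peaks taken one by one but not in length. The median peak was 186 bp wide in the even list and 171 bp in the odd list, and its summit was enriched 10.9-fold in the even and 10.2-fold in the odd list. This fold is the authors' own value, and the control behind it is not known here. Neighbouring summits lay a median of 15.4 kb apart in the even list and 51.1 kb apart in the odd list. The number of reads behind either list is unknown. The odd list made up 24.7% of all peaks compared, and between 19.4% (chromosome 19) and 27.2% (chromosome 4) of those on a chromosome.

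At the scale of 1 bp the lists rarely met. Among the odd peaks, 1310 of 34695 (3.78%, Wilson 95% interval 3.58 to 3.98) overlapped an even peak, and among the even peaks 1298 of 105669 (1.23%, 1.16 to 1.3) overlapped an odd peak. These intervals cover counting error only and treat neighbouring peaks as independent. For reference, the even list was moved round each chromosome by 20 fixed distances, from 2 to 40 Mb in steps of 2 Mb, which keeps its widths and spacing. Moved lists (called shifted lists in the plots) were met by a mean of 558 odd peaks, with a range from 516 to 610, so the observed overlap was 2.35 times that mean. Against moves of only 20 to 200 kb, which keep the neighbourhood, it was 1.97 times (mean 665.9, range 620 to 717). Per chromosome, the share of odd peaks with an even overlap ran from 1.84% on X to 5.83% on chromosome 22.

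Agreement between summits, the highest point of each peak, was greatest at the shortest distances and fell steeply within 200 bp, then slowly to a low plateau. The lists held 815 pairs of an even and an odd summit within 100 bp of each other, against a mean of 256.5 for the moved lists (range 222 to 294), or 3.18 times. Between 100 and 200 bp there were 380 pairs, 1.51 times the moved mean. The multiple was 1.34 between 0.5 and 1 kb, 1.25 between 2 and 5 kb and 1.22 between 5 and 10 kb. It was still 1.19 between 50 and 100 kb, where 149774 pairs stood against 125696. If pairs within 100 bp were as dense as those 20 to 100 kb apart, there would be 301 of them, so 514 pairs were in excess of the neighbourhood.

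The plateau was not particular to pairs between the lists. Even summits paired with other even summits 20 to 100 kb away 1.27 times as often as in moved lists, and odd summits with other odd summits 1.18 times, beside 1.20 for even with odd. It was lower when empty stretches of the chromosomes, into which moved peaks can fall, were taken out. When stretches of at least 200 kb without a peak in any of the 4 lists were closed up before moving, the multiple at 20 to 100 kb was 1.1. With moves of 20 to 200 kb it was 1.01, but these moves are of the size of the distances measured. A multiple near 1 is then built in and says nothing about empty stretches. The RNase-treated lists gave 1026 pairs within 100 bp, 2.22 times their moved mean, and 1.15 times at 20 to 100 kb. Within a probe set the picture was of another order, with 84074 pairs within 100 bp for the even lists without and with RNase, 99.7 times the moved mean, and 31372 pairs (227 times) for the odd lists.

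**Figure D1:**
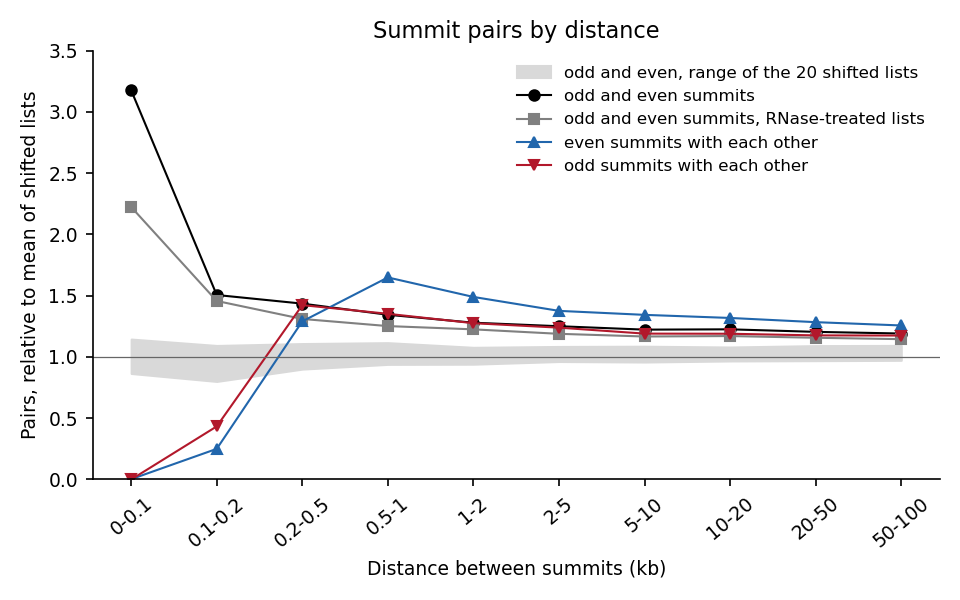
The number of summit pairs in 10 classes of distance (kb, horizontal axis) is divided by the mean of the 20 moved lists (vertical axis); the grey band is the range of the moved lists for odd and even summits. Odd and even summits reach 3.18 below 100 bp and stay near 1.2 from 5 to 100 kb, close to the curves of each list with itself; below 200 bp, summits of 1 list are rarely called separately.

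Seen from the single odd peak, an even peak was nearer than in the moved lists, and beyond a few kb the difference was larger from moves of 2 to 40 Mb than from moves of 20 to 200 kb. An odd summit lay a median of 8046 bp from the nearest even summit (quartiles 2926 and 17878 bp), against 11026 bp on average for moves of 2 to 40 Mb and 8858 bp for moves of 20 to 200 kb. An even summit lay within 1 kb of 10.9% of the odd summits, where the moved lists gave 7.03% (range 6.64 to 7.61), a multiple of 1.55. Within 10 kb the share was 56.9% against 47.1%, a multiple of 1.21, and 53.9% for the short moves. Within 100 kb it was 99.3% against 92.4%, and 99.2% for the short moves, so a nearest summit at this distance says little. Beyond 100 kb lay 229 odd summits, 0.660% of the list. From the even side the shares were lower, with fewer odd than even peaks to meet. An odd summit lay within 1 kb of 3.69% of the even summits (1.55 times the moved mean) and within 100 kb of 92.2%.

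**Figure D2:**
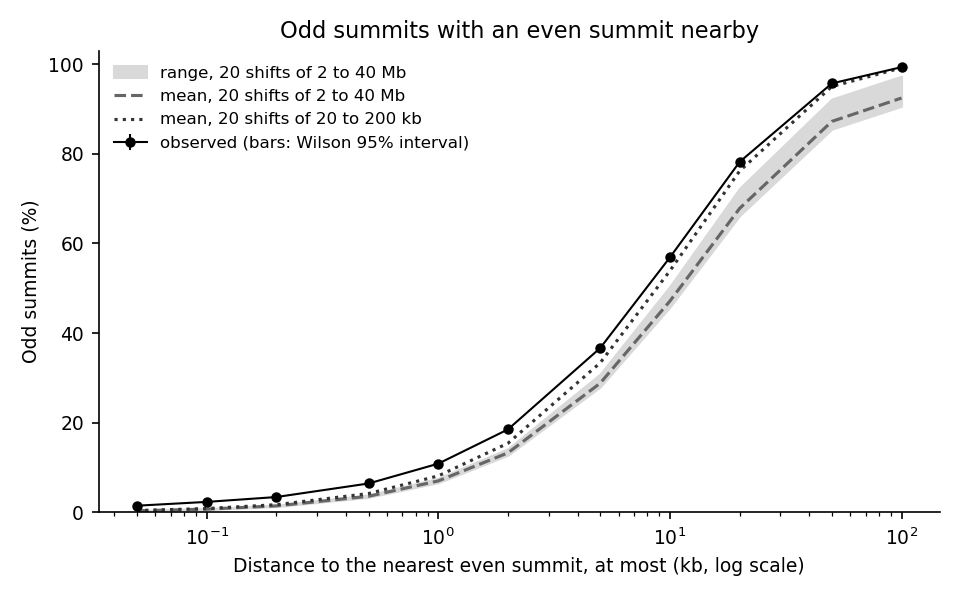
The share of the 34695 odd summits (%) that have an even summit within a distance (kb, log scale) is plotted with Wilson 95% intervals, beside the mean and range of moves of 2 to 40 Mb and the mean of moves of 20 to 200 kb. The observed share runs from 1.5% within 50 bp to 99.3% within 100 kb, and from 20 kb on it lies within 2.03 percentage points of the short moves.

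The strongest 1000 peaks of the lists were almost all different places. Among the 100 strongest peaks of each list, ranked by the authors' −log10 p-value, a single pair overlapped. Among the 1000 strongest of each list 2 odd peaks overlapped an even one, against a mean of 0.450 in moved lists (range 0 to 3). For the 10000 strongest the count was 48, 0.480%, against 27.5 (18 to 38). With the 34695 strongest even peaks, the whole odd list had 728 overlaps, 2.10% of its peaks, against a mean of 232 in moved lists (201 to 265).

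Strong even peaks did, however, often cover a weak odd peak. Of the 100 strongest even peaks, 52 overlapped some odd peak (Wilson 95% interval 42.3 to 61.5%), where moved lists gave a mean of 1.45 (0 to 4). Of the 1000 strongest, 243 did, against 9.25 (4 to 17). These 1000 peaks had a median fold of 84.5, their 243 odd partners a median fold of 7.10, below the odd list's median of 10.2, and 189 of the partners (77.8%) stood in the weaker 50% of the odd list. In steps of 10% of the even list, the overlap was 4.51% in the strongest 10% and 1.20% in the next, and between 0.700% and 0.918% in each of the others, read against 1.23% over the whole list. Of the 815 summit pairs within 100 bp, 361 belonged to the strongest 10% of the even list, 14.3 times their moved mean. The other 90% of the even list gave 454 pairs, 1.96 times.

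The converse was weaker between the untreated lists. Of the 100 strongest odd peaks 12 overlapped an even peak (95% interval 7.0 to 19.8%). The mean was 2.75 when these odd peaks, in place of the even list, were moved by the same distances. Of the 1000 strongest 57 did, against 25.6 with these odd peaks moved. The 1000 peaks had a median fold of 88.7 and their even partners one of 9.01. With the RNase-treated even list, 27 of the same 100 odd peaks and 84 of the same 1000 overlapped. Between the RNase-treated lists the sides were nearer, with 38 of the 100 strongest even and 30 of the 100 strongest odd peaks. In the untreated odd list the overlap with the untreated even list was highest among the weakest peaks. It was 5.59% in the weakest 10%, 4.23 times the mean with the even list moved. In the strongest 10% it was 4.09%, 1.65 times that mean for the same peaks, read against 3.78% over the whole list. The even peaks that met the weakest odd ones had a median fold of 62.2, and 135 of 194 were in the strongest 10% of the even list.

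**Figure D3:**
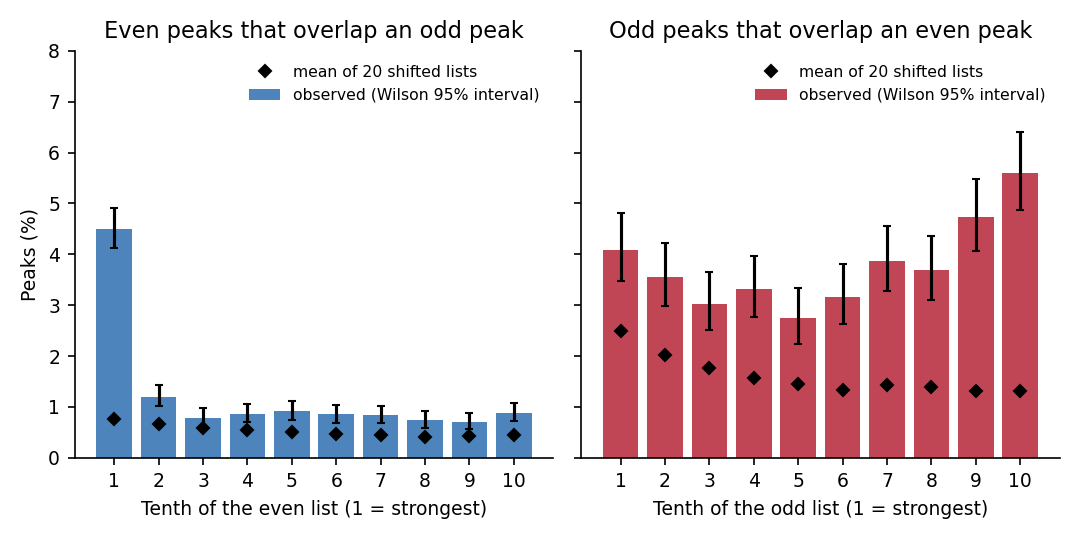
Bars give the share of peaks (%) that overlap the other list by at least 1 bp, for each 10% of the even list (left) and of the odd list (right) from strongest to weakest by −log10 p-value, with Wilson 95% intervals; diamonds are the means of the 20 moved lists. The strongest even peaks stand at 4.51% against 0.771% in moved lists, and the weakest odd peaks at 5.59% against 1.32%.

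Overlapping peaks joined into 1292 regions, against a mean of 556.7 in moved lists (range 514 to 610). Of the 1292 regions, 1273 were of 1 even and 1 odd peak, and the median width was 413 bp. Summits of the 1292 regions lay a median of 69 bp apart, within 50 bp in 521 regions, whereas moved lists gave a mean of 130 such regions (range 111 to 152). The even and odd folds of a region ran against each other. Across the 1292 regions, which share the libraries and are not replicates, the Spearman rho of even with odd fold was −0.37, beside a mean of −0.03 in the moved lists (−0.10 to 0.05) and −0.22 in the RNase-treated lists.

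Regions strong in the even list alone stood well above the moved lists. In 288 regions (22.3%) the even fold was at least 50 and the odd fold under 10, against a mean of 15.7 in moved lists (range 8 to 23). In 53 regions the odd fold was at least 50 and the even fold under 10, against 24.4 (15 to 36). Regions with both folds at least 50 numbered 8, inside the range of 0 to 9 in moved lists (mean 3.55), and those with both at least 20 numbered 86, against a mean of 52.6 (41 to 78). Relative to moved lists, the 53 and the 86 were raised no more than the count of all regions (1292 against 556.7). In the 288 regions the summits lay a median of 37 bp apart and within 50 bp in 184 (63.9%). In the 86 regions strong in both lists they lay a median of 145 bp apart and within 50 bp in 22 (25.6%).

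Named after their values were seen, the 5 of the 288 regions with the highest even fold were these. The first spanned 715600 to 716467 of chromosome 17, with an even fold of 148 over an odd fold of 7.82. Chromosome 4 held a pair of them, from 181486828 to 181488757 (148 over 6.38) and from 184474687 to 184475838 (145 over 5.86). The others spanned 74684113 to 74684699 of chromosome 18 (133 over 4.56) and 127747800 to 127748259 of chromosome 8 (130.5 over 5.47). All positions of peaks and windows are in hg19. The reverse class was led by chromosome 15 at 57256494 to 57257112, with an odd fold of 159 over an even fold of 6.15 and summits 16 bp apart. No gene was assigned to these places.

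**Figure D4:**
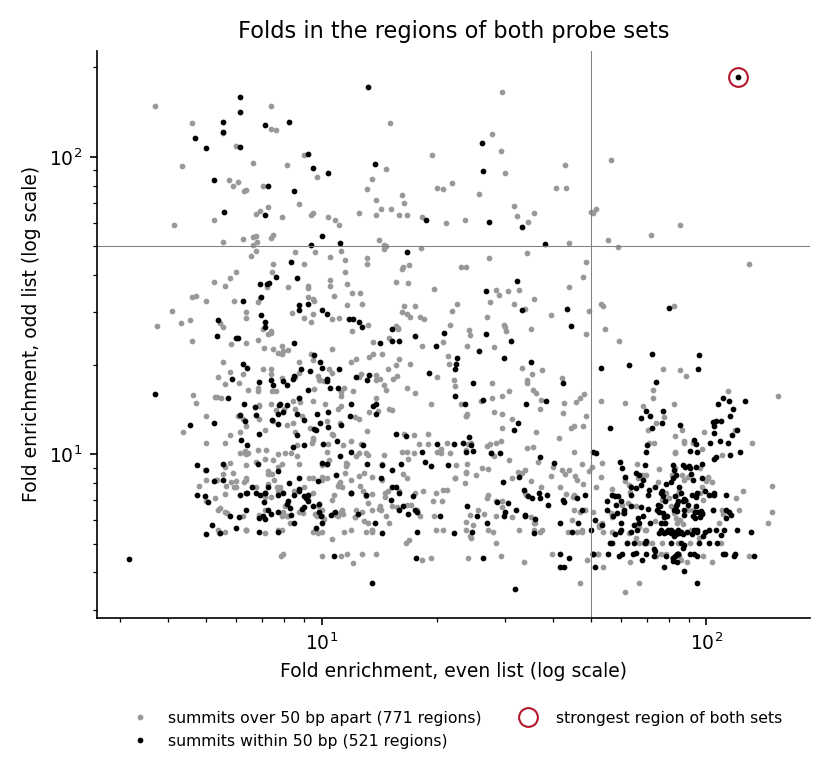
Each point is 1 of the 1292 regions of both probe sets, with its fold enrichment in the even list (horizontal, log scale) and in the odd list (vertical, log scale); thin lines mark a fold of 50, and black points have summits within 50 bp. A dense group of 288 regions lies at even folds of at least 50 and odd folds under 10, and the ringed region on chromosome 6 has the highest smaller fold of all 1292 (even 121, odd 186).

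The weak odd peaks under strong even peaks also differed from other weak odd peaks in the RNase-treated odd list, which took no part in choosing them. Of 298 odd peaks with a fold under 10 that overlapped an even peak of fold at least 50, 119 (39.9%, 95% interval 34.5 to 45.6) had a counterpart in the RNase-treated odd list. Of the 15654 odd peaks with a fold under 10 and no even overlap, 83.8% had one (83.2 to 84.4), and of 387 over a weaker even peak 77.0% (72.6 to 80.9). Their median folds were alike, 6.22, 6.70 and 6.97. Among the 288 regions, all held a peak of the RNase-treated even list and 118 (41%) one of the RNase-treated odd list. Of all 1292 regions, 1121 held a peak of the RNase-treated even list and 1025 one of the RNase-treated odd list. Of the 1000 strongest even peaks, 174 overlapped the RNase-treated odd list (moved mean 16.1), although that list is longer than the untreated odd list, which 243 overlapped. For weak even peaks the share with a counterpart in the RNase-treated even list was 68.5% under strong odd peaks (54 peaks, 55.3 to 79.3) and 65.8% with no odd overlap. The RNase-treated pair of lists held 228 regions with an even fold of at least 50 and an odd fold under 10, among 1866 regions. Without RNase there were 288 among 1292. Folds ran higher in the RNase-treated even list (highest 293 against 153), so a fold of 50 is not the same cut in both. Whether carry-over of material or reads between the even and odd libraries, or sequencing depth, has a part in the 288 regions, in the summit pairs within 100 bp or in these shares was not tested.

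The region with the highest smaller fold was on chromosome 6 at 36644595 to 36646433, with an even fold of 121 and an odd fold of 186. From general knowledge of hg19 this is the neighbourhood of CDKN1A and DINO, whose DNA the probes match. It was the strongest odd peak and ranked 5 among even peaks, and the summits lay 7 bp apart. No moved list held a region with a smaller fold above 89.6 (mean of the highest 67.1). It was also the only region with both folds at least 100. The RNase-treated lists had folds of 191 and 300.1 there.

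The next 9 regions by smaller fold had smaller folds between 44.1 and 58.8, inside the span of 48.7 to 89.6 that the strongest regions of the moved lists covered, or below it. On chromosome 22, the region at 47399078 to 47402149 (even 85.3, odd 58.8) joined 1 even and 3 odd peaks over 3072 bp, with summits no nearer than 354 bp. On chromosome 21, at 45023553 to 45025981 (56.4 and 97.3), the summits were 1974 bp apart. They were 389 bp apart on chromosome 7 at 46217431 to 46218274 (71.8 and 54.6) and 95 bp apart on chromosome 5 at 168359196 to 168359622 (55.4 and 52.4). On chromosome 3 the summit gap was 400 bp at 68836250 to 68837050 (51.6 and 66.5) and 84 bp at 183700312 to 183700775 (58.9 and 49.9). The others were on chromosome 11 at 47650804 to 47651306 (50.8 and 64.7, gap 136 bp), chromosome 4 at 42821015 to 42821594 (50.01 and 65.3, gap 87 bp) and chromosome 2 at 113559197 to 113559776 (48.5 and 44.1, gap 211 bp). Each of these regions also held a peak of both RNase-treated lists, as did 869 of the 1292 (67.3%).

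Of the 5 strongest odd peaks, 4 overlapped an even peak. Besides chromosome 6 these were chromosome 20 at 50578710 to 50579337 (odd 171, even 13.2, summits 11 bp apart), chromosome 12 at 25485842 to 25486405 (165 and 29.4, 69 bp) and the chromosome 15 position given above. The other, on chromosome 10 at 60401164 to 60401753 (odd 159), had its nearest even summit 15.5 kb away. All 5 of the strongest even peaks overlapped an odd peak. Besides chromosome 6 and those already named on chromosomes 4 and 17, this was chromosome 13 at 109945459 to 109947313 (even 153, odd 15.7). Over the 100 strongest even peaks the nearest odd summit was a median of 458.5 bp away, over the 1000 strongest 14456 bp. Over all even peaks this median was 24191 bp, and 31857 bp on average in moved lists. For odd peaks the medians were 6544 bp and 7525 bp, beside 8046 bp over all odd peaks.

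Even and odd peak counts in fixed windows were more alike the larger the windows. In 30350 windows of 100 kb, which held a mean of 3.48 even and 1.14 odd peaks, the Pearson r between the counts was 0.32 (Spearman rho 0.35). In 3047 windows of 1 Mb, with means of 34.7 and 11.4, it was 0.72 (rho 0.71). The r was 0.07 in windows of 10 kb and 0.86 in windows of 5 Mb. These are descriptions over windows of the same libraries and genome, which share gaps, mappability and base composition. For the moved lists the mean r was 0.05 at 100 kb (range 0.01 to 0.16) and 0.15 at 1 Mb (0.05 to 0.48). With windows free of peaks in all 4 lists left out, it was 0.23 at 100 kb and 0.65 at 1 Mb. All 23 chromosomes had a positive r, from 0.21 to 0.52 at 100 kb and from 0.55 (chromosome 10) to 0.88 (chromosome 22) at 1 Mb.

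The gain with window size went with the counts per window. Small counts scatter, and Poisson scatter adds a variance equal to the mean count, which is most of the variance of odd counts at 100 kb (variance 1.26 times the mean) and less of it at 1 Mb (3.11 times). The covariance of the lists was therefore also divided by the root of the product of their variances after each mean was subtracted. This value was 0.93 at 100 kb and 0.92 at 1 Mb, and between 0.91 and 0.93 at each of the 7 window sizes from 50 kb to 5 Mb. Without the windows free of peaks it was 0.91 and 0.90. It assumes that peaks scatter as Poisson counts around a shared density. At 10 kb it exceeded 1 (1.06), so it is not read below 50 kb. At 20 kb it was 0.99. Without the windows free of peaks it was −0.99 at 10 kb and −1.21 at 20 kb. Between the lists without and with RNase of 1 probe set it exceeded 1 at larger sizes too. It was 1.69 (even) and 3.29 (odd) at 100 kb, and 1.08 and 1.27 at 1 Mb. The values from 0.91 to 0.93 therefore hold only under this assumption.

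The likeness reached across neighbouring windows. Between even counts of a 100 kb window and odd counts of a neighbouring window, averaged over both directions, the r was 0.27. It was 0.21 at 0.5 Mb and 0.17 at 2 Mb, beside 0.32 in the same window. For windows of 1 Mb this average was 0.58 with the next window, 0.37 at 5 Mb and 0.12 at 20 Mb. For scale, within a probe set the lists without and with RNase had an r of 0.88 (even) and 0.77 (odd) at 100 kb and 0.96 and 0.90 at 1 Mb. The RNase-treated even and odd lists had 0.33 and 0.74, near the values without RNase.

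**Figure D5:**
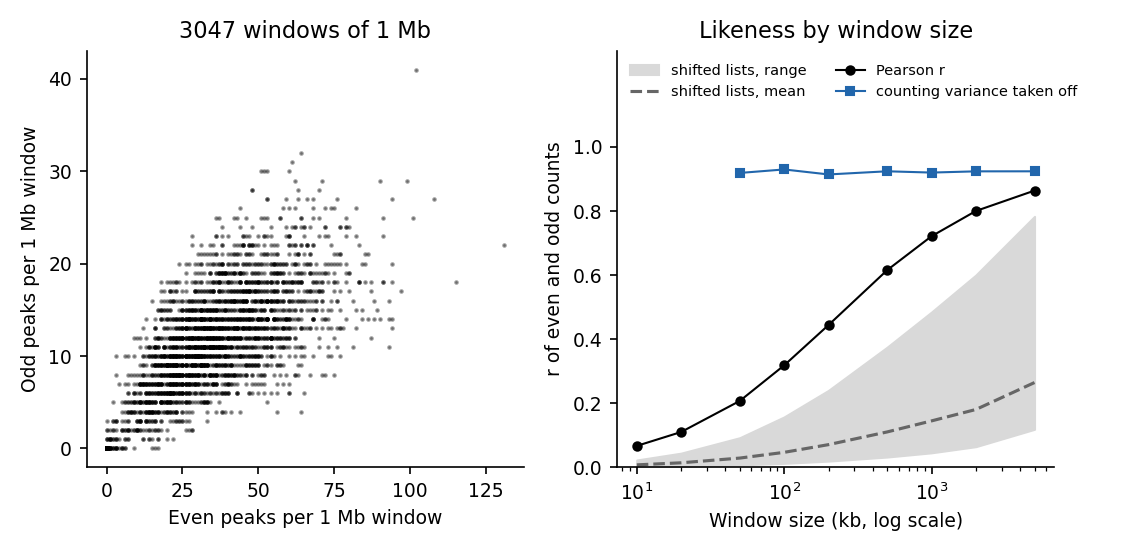
Left, each of the 3047 windows of 1 Mb is a point with its number of even peaks (horizontal) and odd peaks (vertical). Right, the Pearson r of even and odd counts against window size (kb, log scale) rises from 0.07 to 0.86, the range and mean over the 20 moved lists lie below it, and the value with counting variance taken off (squares, from 50 kb) stays between 0.91 and 0.93.

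In windows of 100 kb the odd count followed the even count in small steps. Windows without an even peak (4375) had a mean of 0.344 odd peaks (SD over windows 0.740), those with 1 even peak 0.926 (SD 1.06), those with 5 to 7 even peaks 1.5 (SD 1.25) and those with 12 or more 1.94 (SD 1.46). The steps between neighbouring classes were smaller than the spread within them. Of the 30350 windows, 27704 held a peak in any list, and all the others fall in the class without an even peak. These empty windows lower the mean of 0.344, and the mean without them was not computed. The step from 0.344 to 0.926 is therefore not read as odd peaks following even peaks. The rise from 0.926 to 1.94 involves no empty windows. At 1 Mb, 179 windows had no peak in either list, 25 had even peaks alone and 6 had odd peaks alone. Where a window held at least 20 peaks (2649 windows), the odd share had a median of 25% and an SD of 7.36 percentage points. This was 1.14 times the 6.43 points that binomial counting gives. For the share of RNase-treated peaks within a probe set the same ratio was lower, 0.69 (even) and 0.60 (odd), so binomial counting is not the lowest spread seen.

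By rank in both lists, the densest window of 1 Mb was chromosome 7 from 1 to 2 Mb, with 102 even and 41 odd peaks, the latter the highest odd count of any window. It was followed by chromosome 8 from 142 to 143 Mb (99 and 29), chromosome 17 from 78 to 79 Mb (94 and 27), chromosome 22 from 37 to 38 Mb (108 and 27) and chromosome 4 from 7 to 8 Mb (90 and 29). These 5 dense windows held between 0 and 4 regions of both sets each, where all 3047 windows held 1292. Of the 30 densest windows of each list, 5 (16.7%) were the same, a share well above that of 30 windows among 3047.

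Windows that departed most from the odd share of the lists were ranked by the exact binomial tail, used for order alone. This weighs the number of peaks, so windows with fewer peaks can have more extreme shares than those named. The tail ranked first, on the low side, chromosome 9 from 92 to 93 Mb (64 even, 4 odd, 5.88%), chromosome 20 from 60 to 61 Mb (93 and 11, 10.6%) and chromosome 12 from 133 to 134 Mb (56 and 4, 6.67%). On the high side it ranked first chromosome 10 from 42 to 43 Mb (3 and 10, 76.9%), chromosome 4 from 181 to 182 Mb (18 and 18, 50%) and chromosome X from 29 to 30 Mb (3 and 8, 72.7%). In the RNase-treated lists, where the odd share is 33.1% in all, the first 3 windows had 11.9%, 21.7% and 17.5% and the last 3 had 60.0%, 58.0% and 57.7%, so each lay on the same side there. Within a probe set the lists without and with RNase are much alike (r of 0.96 and 0.90 at 1 Mb), so this is no independent check. The DNA copy number of U2OS in these windows was not analysed here.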

How the data were processed

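ChIRP DNA of U2OS cells was measured in 6 samples, 4 of which have a peak list. Bowtie, MACS2 and hg19 are named in the submitters' processing notes; their versions, the threshold and the control were not given in the sources used here. Peak names carry 1 library each, so the authors appear to have called each library separately. The deposited lists are narrowPeak tables without a header, and their score is an integer that was not used. The deposited fold enrichment is a linear ratio within each library, and the authors also give each peak's significance as a −log10 p-value and as a −log10 q-value.

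Lists were read with pandas 2.3.3 and counted with numpy 2.4.6 under Python 3.11.15. Intervals came from scipy 1.17.1 and plots from matplotlib 3.10.9. Coordinates are 1-based. Overlap means at least 1 bp. Chromosomes end at the last peak end of the 4 lists. The moved lists use fixed distances, nothing random, and their range is a description. Counting functions were tested on simulated data. Read depth is unknown. Mitochondrial DNA and chromosome Y were left out (14 even and 17 odd peaks).

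The positions named were to be the 10 strongest regions of both sets, the 5 strongest peaks of each list, the 5 windows dense in both and the 3 windows of extreme odd share on each side. The members, measures and lists were chosen with earlier results of these data known. Alternatives changed the thresholds, the overlap, the numbers of peaks, the moves and the windows. Moves of 20 to 200 kb, the alternatives for the strongest 1000 even peaks, leaving out the strongest 10% of even peaks, and the regions by class of fold with their RNase shares were added after the data were seen.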

Additional observations from a re-analysis of the deposited data

Results flagged for a closer look

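Outside the chromosomes compared, 2615 bp of mitochondrial DNA were covered by both the even and the odd list without RNase, against 1185 bp by both RNase-treated lists, the control. This was 75.8% of the even and 54.5% of the odd length covered without RNase, from 9 and 13 peaks, and 56.2% and 55.7% with RNase. Each value is from 1 library a condition, and the difference was not tested. On chromosome Y the lists shared 0 bp in either state.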

How the results depend on the processing

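Of 78 recomputed values of 9 results, 54 stayed within the 95% interval, within 1.5 times of a count, within the range over moved lists for pairs 20 to 100 kb apart, or within 0.1 of an r. The other 24 moved and 0 changed direction, which the counts of peaks and regions could not do by their definition. Both window correlations stayed within 0.1 in each setting run. The stricter q-value keeps peaks whose −log10 q is 10 or more. Overlapping odd peaks (1310) and shared regions (1292) fell to 728 and 712 with as many even as odd peaks, to 623 and 618 under the stricter q-value and to 356 and 356 with reciprocal 50% overlap. They fell to 822 and 818 without the strongest 10% of even peaks, which held 476 of the 1298 even peaks that overlapped. The multiples within 200 bp, 1 kb and 10 kb (2.35, 1.55 and 1.21) were 3.6, 1.84 and 1.31 with as many even as odd peaks. They were 2.15, 1.43 and 1.12 with empty stretches closed up, and 1.99, 1.33 and 1.06 with moves of 20 to 200 kb. With these moves pairs 20 to 100 kb apart fell from 1.20 to 1.01, a value near 1 by design, since the moves span those distances. The multiples within 200 bp and 10 kb were 2.03 and 1.24 under the stricter q-value, and within 200 bp and 1 kb 1.69 and 1.42 without the strongest 10% of even peaks. The 243 of the 1000 strongest even peaks that overlapped an odd peak fell to 99 under the stricter q-value, which removes weak odd partners, and to 39 with reciprocal overlap. No paired analysis was possible because each condition has 1 library. Counts of weak peaks depend on read depth, which is unknown.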
